A study of Mus musculus with 10 samples.

Results

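The complement system is described here through 31 genes named in a list, of 24972 genes in the table. All 31 were found by symbol. They comprise the C1 complex with C2 and C4 of the classical pathway, the mannose-binding lectins and their proteases, C3 with the factors of the alternative pathway, the terminal components that form the membrane attack complex, 7 regulators and 2 receptors. RNA had been measured in 10 mouse liver libraries made with a 3′ end counting kit. In the T cell-low group (n = 4) the mice bore tumours of line 6419c1, a KPC-derived pancreatic ductal adenocarcinoma line whose tumours hold few T cells. In the T cell-high group (n = 6) they bore tumours of the KPC-derived line 6555c3, whose tumours hold many. The labels give the genotype of all groups as WT. The sources used here give no strain, sex, age, tumour site or time of sampling. Because each group rests on 1 tumour line, an effect of the line cannot be told apart from one of the T cell class. The labels do not state that libraries are of separate mice, so the p-values cover the spread among libraries, some of which may be technical.

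Complement is a cascade of plasma proteases and pore-forming proteins that marks and lyses microbes and damaged cells. The classical arm starts with C1q bound to antibody or other targets, and the lectin arm with mannose-binding lectin bound to sugars. The alternative arm turns over by itself and is amplified on surfaces that lack inhibitors. All arms cleave C3, and cleaved C5 then nucleates assembly of C6, C7, C8 and C9 into a pore. Hepatocytes secrete most of the soluble components, and several, C3 and factor B among them, are known as acute phase proteins. C1q and properdin come mainly from macrophages and other myeloid cells.

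Below, a value is a scaled count, taken as the authors' gene count scaled to a common depth, and a gene was tested if its mean over the 10 libraries was at least 10. Each fold change is that of T cell-low over T cell-high livers on the scale log2(scaled count + 1), given with its standard error (SE). Adjusted p-values are from limma with Benjamini-Hochberg adjustment over all 11110 genes tested, and a gene with an adjusted p below 0.05 is said to have passed, risen or fallen. Scaled totals ran from 7060777 to 8257373 in T cell-low livers against 7000659 to 7513620 in T cell-high libraries. The libraries were not even within their groups. T cell-low 1 had a mean correlation over genes of 0.861 with the other T cell-low libraries and 0.936 with the T cell-high libraries. The globin gene Hbb-bs had 118 to 215 scaled counts in the 4 T cell-low libraries, against 99.7 and 16.2 in T cell-high 2 and 4 and 3465 to 9359 in T cell-high 1, 3, 5 and 6. H2-L, a class I histocompatibility gene, had 307.5 to 1477 in the T cell-low libraries, against 1270.5 and 393.5 in T cell-high 2 and 4, and was listed at 0 in T cell-high 1, 3, 5 and 6. T cell-high 2 and 4 thus lay with the T cell-low libraries for both genes, and for these genes the split runs along the group contrast. By limma 0 genes passed when T cell-low was set against T cell-high 2 and 4 alone (999 at an unadjusted p below 0.05). Against T cell-high 1, 3, 5 and 6 it was 2605. These fits hold unlike numbers of libraries, so their counts cannot be compared directly. Against T cell-high 2 and 4 without T cell-low 1, 375 genes passed. Over all tested genes T cell-high 2 and 4 had mean correlations of 0.915 and 0.936 with the other T cell-high libraries. With the T cell-low libraries these were 0.882 and 0.885. What separates these libraries was not tested. Defining hepatocyte transcripts were present in every library, and the summed scaled count of 14 hepatocyte genes ran from 636661 to 877374 in T cell-low livers against 472208 to 808020 in T cell-high livers.

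Complement members passed in both directions, at a share close to that of all tested genes. In bulk liver fewer cells of a type and less RNA per cell cannot be told apart. Of 29 tested members 1 rose in T cell-low livers, C4bp, and 3 fell, Mbl2, C8g and Cd59a, while 25 did not pass. The called share of 13.8% lay close to the 12.8% of all tested genes, of which 5.39% rose and 7.39% fell. The median log2 fold change was -0.12 over the members (12 above 0 and 17 below) and 0.00 over all genes tested. An unadjusted p below 0.05 was seen for 13 members, or 44.8%, against 34.5% of all genes. The 31 genes together took 1.68% to 2.23% of the scaled counts of a T cell-low library and 1.80% to 2.54% of those of a T cell-high library. Of acute phase genes outside complement, 13 of 22 rose and 1 fell, with a median of 1.17. Examples are Itih3, which encodes a serum protein that stabilises matrix (2.16, SE 0.26, adjusted p = 0.00331), Hpx, the haem carrier hemopexin (1.54, SE 0.25, adjusted p = 0.00876), and the serum amyloid gene Saa2 (3.93, SE 0.74, adjusted p = 0.0132). The list was chosen with results of the same libraries known, and its direction is no independent evidence.

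**Figure D1:**
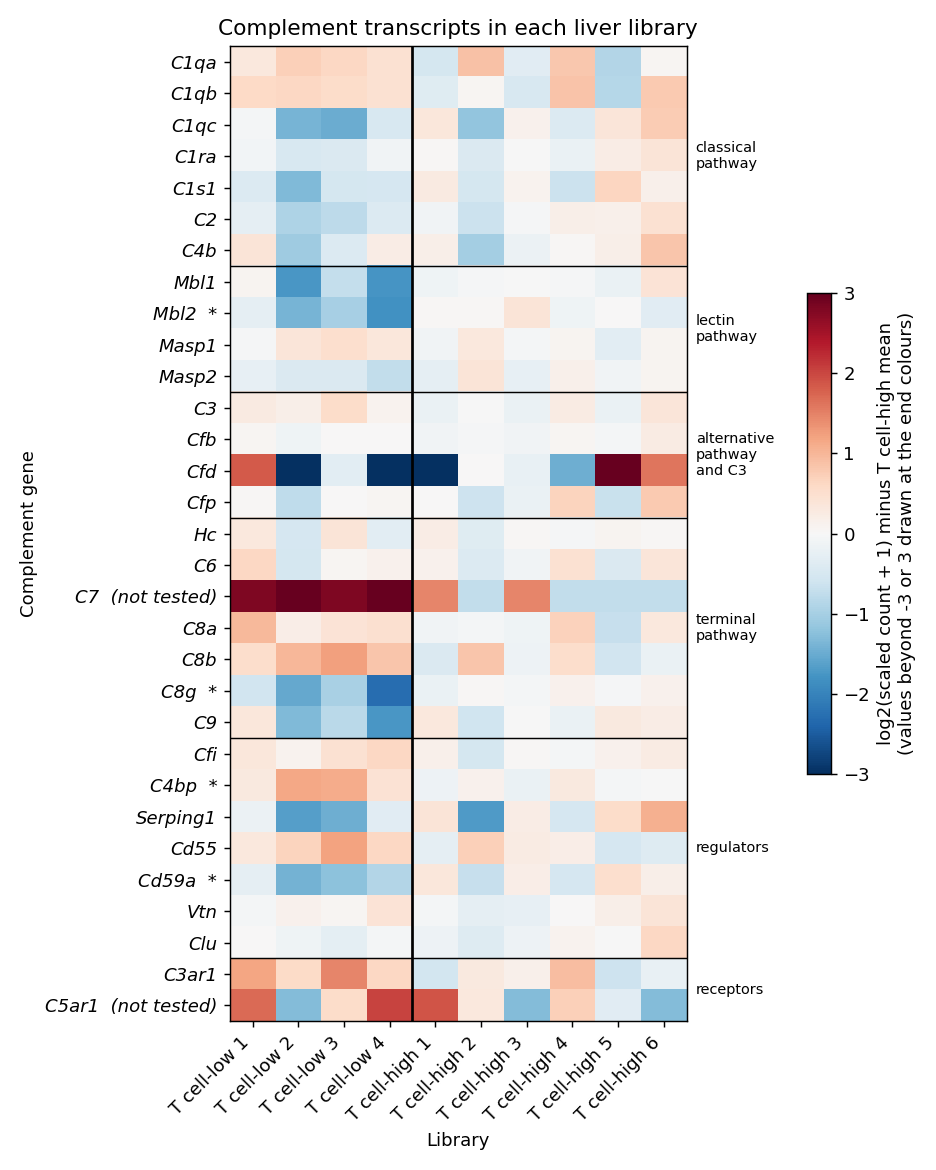
Heat map of the 31 complement genes (rows, grouped by role) in the 10 libraries (columns, T cell-low left of T cell-high); colour gives log2(scaled count + 1) minus the T cell-high mean, with values beyond -3 or 3 drawn at the end colours, and a star marks the 4 genes that passed. The Mbl1, Mbl2, C8g and C9 rows are blue in T cell-low 2, 3 and 4, while C3, Cfb and Clu stay pale across the groups.

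Promoter windows from RefSeq (build GRCm38.p6, 250 bases before to 50 after the start site) were available for 23 of the 31 members, in 25 windows. The 4 genes that passed and C3, the abundant member that did not, are shown 5′ to 3′, in lower case, with any match to a searched motif in capitals.
Mbl2, chr19:30232678-30232977, plus strand: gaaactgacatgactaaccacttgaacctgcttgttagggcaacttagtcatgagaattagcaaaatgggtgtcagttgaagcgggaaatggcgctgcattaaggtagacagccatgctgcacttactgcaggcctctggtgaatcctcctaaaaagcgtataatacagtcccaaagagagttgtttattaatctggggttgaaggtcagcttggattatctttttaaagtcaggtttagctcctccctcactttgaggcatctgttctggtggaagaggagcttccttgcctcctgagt
C8g, chr2:25501670-25501969, minus strand: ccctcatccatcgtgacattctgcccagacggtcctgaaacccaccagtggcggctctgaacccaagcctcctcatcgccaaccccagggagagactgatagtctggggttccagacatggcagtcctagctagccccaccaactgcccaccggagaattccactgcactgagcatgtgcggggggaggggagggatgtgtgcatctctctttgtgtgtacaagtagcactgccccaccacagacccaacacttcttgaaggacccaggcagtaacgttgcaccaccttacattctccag
Cd59a, chr2:104095551-104095850, plus strand: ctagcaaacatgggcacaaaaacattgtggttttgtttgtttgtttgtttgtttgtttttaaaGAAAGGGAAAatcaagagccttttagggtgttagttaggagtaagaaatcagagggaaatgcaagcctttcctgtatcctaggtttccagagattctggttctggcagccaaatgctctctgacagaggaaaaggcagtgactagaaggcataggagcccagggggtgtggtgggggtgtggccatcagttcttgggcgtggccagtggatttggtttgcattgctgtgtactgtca
C4bp, chr1:130661569-130661868, minus strand: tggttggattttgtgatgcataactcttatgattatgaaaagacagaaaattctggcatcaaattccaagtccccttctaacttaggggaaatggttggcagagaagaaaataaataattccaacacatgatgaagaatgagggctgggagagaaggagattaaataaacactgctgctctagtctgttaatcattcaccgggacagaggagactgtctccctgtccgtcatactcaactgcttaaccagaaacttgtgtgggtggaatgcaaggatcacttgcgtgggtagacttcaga
C3, chr17:57228087-57228386, minus strand: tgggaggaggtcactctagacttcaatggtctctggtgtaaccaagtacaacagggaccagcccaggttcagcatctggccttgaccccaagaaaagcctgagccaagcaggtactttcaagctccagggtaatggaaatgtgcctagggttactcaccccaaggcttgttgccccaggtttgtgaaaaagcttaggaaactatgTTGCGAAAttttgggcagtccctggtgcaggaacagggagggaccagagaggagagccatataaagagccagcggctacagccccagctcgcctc

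Both strands were searched for TTCNNNGAA (STAT), TTGCNNAA (C/EBP), the core of the interferon-stimulated response element, the HNF1 site and the NF-kappa-B consensus. The windows of Mbl2, C8g and C4bp held none of them. That of Cd59a held the interferon element core at -187 to -178 from the start site, a match found in 3.44% of 32851 windows of all genes and in 2 of the 25 member windows. That of C3 held the C/EBP motif at -45 to -38, found in 10.8% of all windows and in 4 of 25 member windows (C1ra, C1s1, C9 and C3). The HNF1 site was in 1 member window (Hc) and 0.0609% of all, and the NF-kappa-B consensus in 1 (C1qc) and 8.46% of all. The STAT motif was in 5 of 25 member windows (C8a, Masp2, C1ra, Vtn and C7) and 8.30% of all. These matches describe letters in a window, and members with and without a match were found on both sides of 0.

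Single libraries moved the number of members that passed. The share of all genes moved the same way except when T cell-high 4 was left out. Without T cell-low 1, 10 members passed (34.5%), with Mbl1, C9, C2, C1qc, C8b and Cd55 added, beside 32.6% of all genes. Omitting T cell-high 2 gave 9 of 29 members beside 20.4% of all genes. Omitting T cell-high 4 gave 6 members (20.7%), more than the 13.8% with every library, beside 9.83% of all genes, fewer than 12.8%. With T cell-high 6 left out 2 members passed, beside 4.02% of all genes. With T cell-low 3 or 4 or T cell-high 1, 3 or 5 left out 1 member passed, C8g each time, beside 1.40% to 4.55% of all genes. Without T cell-low 2 it was 0 by limma (11 members at an unadjusted p below 0.05), beside 0.972% of all genes. Against T cell-high 2 and 4 alone it was 0 by limma too, with 4 members at an unadjusted p below 0.05. Against T cell-high 1, 3, 5 and 6 alone 12 members passed (41.4%), 5 higher and 7 lower, beside 23.4% of all genes.

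Of the mannose-binding lectin genes Mbl2 fell in T cell-low livers, and Mbl1 had a negative fold change that did not pass. Mbl2, which encodes mannose-binding lectin C (chromosome 19, 30232942 to 30239687), had 4875, 2248, 2968 and 1673 scaled counts in T cell-low 1 to 4, against a lowest of 4634.5, a median of 5964.5 and a highest of 7751 in T cell-high livers. The groups overlapped only through T cell-low 1, which lay above T cell-high 6. The mean was 2941 ± 1394 in T cell-low livers (SD, n = 4) and 5969 ± 1027 in T cell-high livers (SD, n = 6); Mbl2 thus fell by 1.12 on the log2 scale (SE 0.27, adjusted p = 0.0242). Mbl1, the gene of mannose-binding lectin A (chromosome 14, 41151458 to 41159601), had 1802, 505.5, 1030.3 and 493.9 scaled counts in T cell-low 1 to 4, against 1477.5 to 2264 with a median of 1652 in T cell-high livers. Here too T cell-low 2, 3 and 4 lay below every T cell-high library and T cell-low 1 lay among them. The fold change of Mbl1 (-1.04, SE 0.32, adjusted p = 0.0505) did not pass, though it did without T cell-low 1 (-1.41, adjusted p = 0.00157). For Mbl2 the adjusted p was above the threshold without T cell-low 2 (0.0905), 3 (0.0510) or 4 (0.0785) and without T cell-high 1 (0.0545), 3 (0.0560) or 5 (0.0554).

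The genes of the proteases that travel with mannose-binding lectin did not pass. Masp1, whose products include the protease that activates the lectin complex, averaged 739 ± 110 scaled counts in T cell-low livers against 600.4 ± 88.1 in T cell-high livers (0.30, 95% interval -0.09 to 0.69, adjusted p = 0.255). Masp2, the gene of the protease that cleaves C4 and C2, averaged 859 ± 117 in T cell-low livers against 1188 ± 214 in T cell-high livers (-0.46, 95% interval -0.86 to -0.06, adjusted p = 0.105), and its 3′ end overlaps Tardbp on the other strand, where counting by strand is not stated. Over the 4 lectin pathway genes, the median difference (log2) from the mean of T cell-high livers took values of -0.13, -0.91, -0.57 and -1.26 in T cell-low 1 to 4, against -0.15 to 0.17 in the T cell-high libraries.

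Of the C8 subunit genes C8g fell in T cell-low livers, whereas C8a and C8b had positive fold changes that did not pass. C8 is built from an alpha, a beta and a gamma chain, of which gamma is a lipocalin that is linked to alpha. C8g (chromosome 2, 25498651 to 25501719) had 3075, 1591, 2362 and 942.0 scaled counts in T cell-low 1 to 4, against a lowest of 3991, a median of 4637 and a highest of 5017 in T cell-high livers. Every T cell-low library lay below every T cell-high library, the only tested member for which the groups did not overlap, where 7.39% of all tested genes showed no overlap, 3.37% with T cell-low above and 4.02% with it below. It fell by 1.34 on the log2 scale (SE 0.27, adjusted p = 0.0170), and the adjusted p was 0.0675 without T cell-low 2. C8b, the beta chain gene (chromosome 4, 104766317 to 104804548), had 6205, 8611, 10038 and 7626 scaled counts in T cell-low livers, against 2907 to 7613 with a median of 3803 in T cell-high livers. The 2 T cell-high libraries within the T cell-low range or close to it were T cell-high 2 (7613) and T cell-high 4 (6188). The fold change of C8b was 0.90 (SE 0.28, adjusted p = 0.0506), which did not pass, and did pass without T cell-low 1 (adjusted p = 0.0202), T cell-high 2 (adjusted p = 0.0176) or T cell-high 4 (adjusted p = 0.0461). C8a, the alpha chain gene (chromosome 4, 104815679 to 104876398), averaged 5236 ± 1245 in T cell-low livers against 3754 ± 1217 in T cell-high livers (0.51, SE 0.25, adjusted p = 0.169). As a share of the summed scaled counts of the 3 genes, C8g took 18.9%, 11.1%, 13.7% and 6.94% in T cell-low 1 to 4 and 29.5% to 46.9% in T cell-high livers.

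The other tested terminal components did not pass. C9, which polymerises to line the pore, had 2299, 727, 1032 and 539 scaled counts in T cell-low 1 to 4, against 1187.5 to 2242 with a median of 1961 in T cell-high livers. T cell-low 2, 3 and 4 lay below all T cell-high libraries and T cell-low 1 above them all, and C9 did not pass (-0.88, SE 0.34, adjusted p = 0.0945). It passed without T cell-low 1 (-1.29, adjusted p = 0.00314). Hc, the mouse C5 gene, averaged 3263.6 ± 974.8 scaled counts in T cell-low livers against 3238 ± 422 in T cell-high livers, with a difference of -0.03 and a 95% interval of -0.49 to 0.43. C6 averaged 237 ± 75.2 in T cell-low livers against 224 ± 58.1 in T cell-high livers (0.06, 95% interval -0.50 to 0.63). C7 lay under the filter, with 10.5, 24.5, 10.5 and 13.9 scaled counts in T cell-low livers against 3.6 in T cell-high 1 and 3, with C7 listed at 0 in T cell-high 2, 4, 5 and 6. All T cell-low libraries were above all T cell-high libraries for C7. Its values lay near the floor, where a log2 difference depends on the added 1. It would enter a fit only with the filter dropped, through the T cell-low libraries, so no fold change or call is read from it.

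Transcript length moved with the fold changes. Over 10739 tested genes with an annotated length Spearman's rho between log2 fold change and the longest protein-coding transcript was 0.23, and over the 29 tested members it was 0.39, the points sharing the same 10 libraries. The median log2 fold change was -0.31 for 550 genes under 1000 bases and 0.18 for 3781 genes over 4000 bases. C8g (1150 bases) and Mbl2 (1089 bases) are among the shorter members. With each library's trend on length removed, an alternative chosen after seeing the data, C8g stayed past the threshold (-1.01, adjusted p = 0.0307), as did C4bp (0.83, adjusted p = 0.0363). Mbl2 (-0.78, adjusted p = 0.0560) and Cd59a (-0.72, adjusted p = 0.0631) were then not past it, whereas C8b (1.08, adjusted p = 0.0446) and Cfi (0.58, adjusted p = 0.0467) were.

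**Figure D2:**
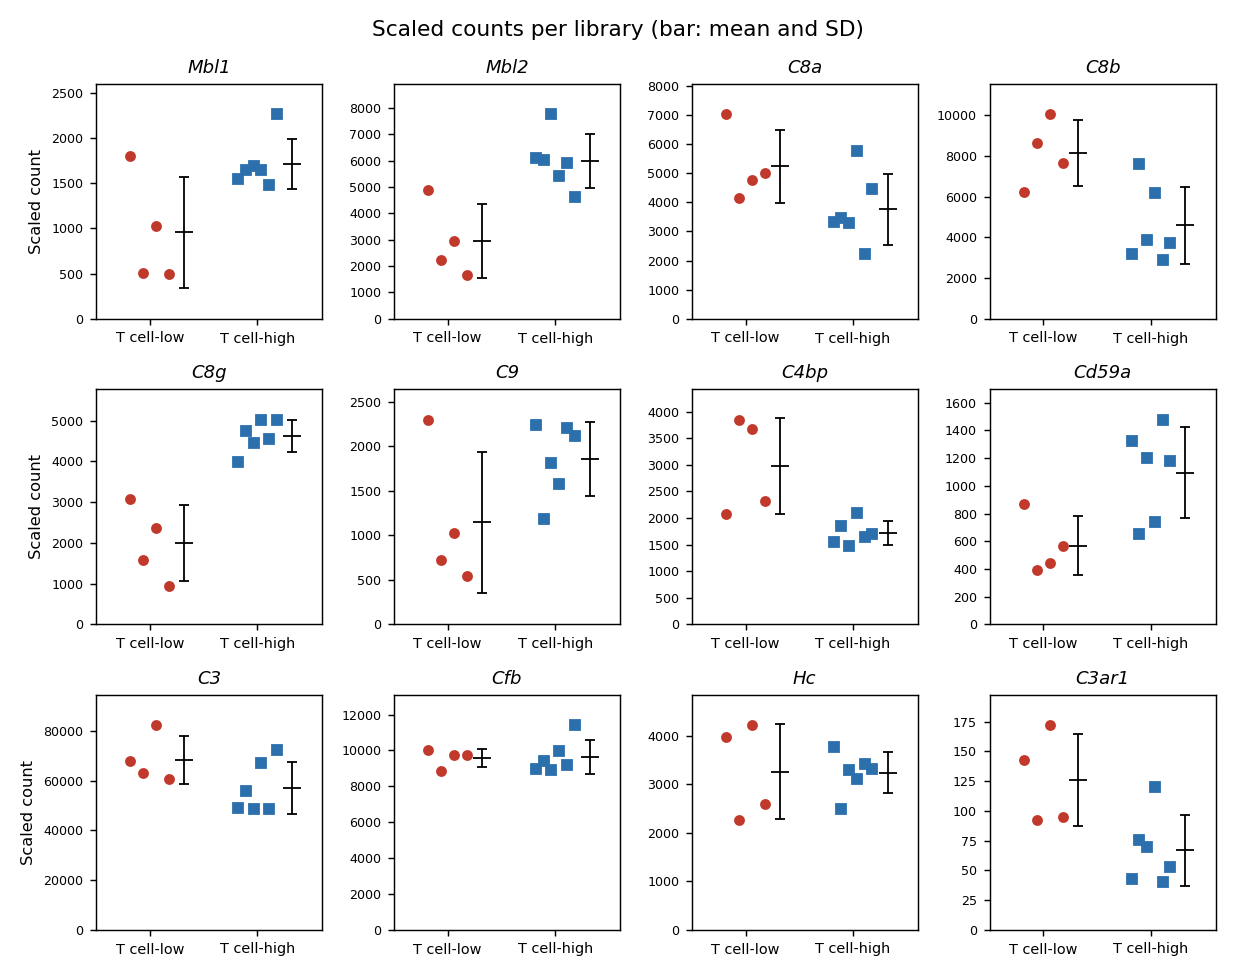
Scaled counts (vertical axes from 0) of 12 complement genes in 4 T cell-low (red circles) and 6 T cell-high (blue squares) libraries, with the mean and SD as a bar beside each group. C8g shows no overlap between the groups, T cell-low 1 is the high red point for Mbl1, Mbl2 and C9, and the groups overlap for Cfb and Hc.

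Regulators were on both sides. C4bp encodes the alpha chain of C4b-binding protein, a plasma cofactor for the breakdown of C4b (chromosome 1, 130634773 to 130661632). It had 2081, 3844, 3671 and 2321 scaled counts in T cell-low 1 to 4, against a lowest of 1476, a median of 1669.8 and a highest of 2099 in T cell-high livers. Only T cell-high 4 (2099) lay within the T cell-low range. The log2 fold change was 0.75 (SE 0.21, adjusted p = 0.0397). C4bp rested on several libraries, since the adjusted p was 0.137, 0.100 and 0.0705 without T cell-low 2, 3 and 4 and 0.0841, 0.0855, 0.0806 and 0.0744 without T cell-high 1, 3, 5 and 6. It was 0.0585 when libraries were rescaled to the same total, a step that lowers the median of all genes to -0.115.

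Cd59a, the gene of a membrane-anchored inhibitor of pore assembly (chromosome 2, 104095801 to 104115354), had 871, 394, 446.0 and 566 scaled counts in T cell-low 1 to 4, against a lowest of 653, a median of 1190.6 and a highest of 1477 in T cell-high livers. The lowest T cell-high libraries were T cell-high 2 (653) and 4 (738), both below T cell-low 1. The log2 fold change was -0.95 (SE 0.29, adjusted p = 0.0472), and -0.35 (adjusted p = 0.731) against T cell-high 2 and 4 alone. The adjusted p was 0.155, 0.108 and 0.102 without T cell-low 2, 3 and 4 and 0.0959, 0.0929, 0.0970 and 0.0903 without T cell-high 1, 3, 5 and 6.

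The other 5 regulators did not pass. Serping1, the gene of the C1 inhibitor, ranged widely, with 7311, 2641, 2984 and 6461 scaled counts in T cell-low livers against 2528 to 17168 with a median of 10191 in T cell-high livers (-0.91, SE 0.48, adjusted p = 0.191). T cell-high 2 (2528) was the lowest of all 10 libraries, and without it Serping1 passed (-1.25, adjusted p = 0.0348). Cd55, the gene of decay-accelerating factor, which takes apart C3 convertases at membranes, averaged 202 ± 54.5 in T cell-low livers against 127 ± 42.6 in T cell-high livers (0.70, SE 0.27, adjusted p = 0.0941). It passed without T cell-low 1 (adjusted p = 0.0443) or T cell-high 2 (adjusted p = 0.0371). Cfi, the protease that degrades C3b and C4b, averaged 2235 ± 334 in T cell-low livers against 1722 ± 293 in T cell-high livers (0.38, SE 0.19, adjusted p = 0.172). Vtn, the gene of vitronectin, and Clu, the gene of clusterin, both of which bind forming pores in plasma, had log2 fold changes of 0.13 (95% interval -0.28 to 0.55) and -0.12 (95% interval -0.57 to 0.33).

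C3 and the alternative pathway genes did not pass in T cell-low livers, 0 of 4 by limma and 0 at an unadjusted p below 0.05. C3 (chromosome 17, 57203970 to 57228136), on which all arms converge, had 67831, 63147, 82285 and 60699 scaled counts in T cell-low livers, against a lowest of 48622, a median of 52462 and a highest of 72523 in T cell-high livers. The groups overlapped, with T cell-high 4 and 6 among the T cell-low values, and the difference of 0.27 (95% interval -0.17 to 0.72, adjusted p = 0.361) did not pass. Cfb, which encodes the protease subunit of the alternative C3 convertase, averaged 9587 ± 512 in T cell-low livers against 9632 ± 946 in T cell-high livers, a difference of 0.00 with a 95% interval of -0.35 to 0.34. Its 3′ end is shared with the read-through gene Gm20547. Cfd, the factor D gene, known chiefly as a product of fat cells, ran from 0 to 209 in T cell-low livers against 4.6 to 646 in T cell-high livers, the groups overlapping (95% interval -4.94 to 1.20). Cfp, the gene of properdin, which stabilises the convertase, averaged 137.5 ± 33.0 in T cell-low livers against 162 ± 70.7 in T cell-high livers (-0.16, 95% interval -0.86 to 0.53).

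In the classical pathway 0 of 7 genes passed by limma, with C1qc, C1s1 and C2 at an unadjusted p below 0.05 (0.0458, 0.0283 and 0.0234). C4b, the classical pathway gene of highest mean, had 5887, 2170.0, 3407 and 5245 scaled counts in T cell-low livers, against a lowest of 2213, a median of 4840.3 and a highest of 8028 in T cell-high livers. The groups overlapped over most of their range (-0.22, SE 0.35, adjusted p = 0.681). Over the final 400 bases of its transcripts, 46.4% of 50-base words also occur in another gene, most often in C4a, its near copy. Reads of C4b and C4a may therefore be mixed. C1ra and C1s1, the genes of the C1 proteases, had log2 fold changes of -0.28 (SE 0.19, adjusted p = 0.320) and -0.69 (SE 0.28, adjusted p = 0.105). C2, which supplies the protease of the classical C3 convertase, had -0.60 (SE 0.23, adjusted p = 0.0948), and passed without T cell-low 1 (adjusted p = 0.0436) or T cell-high 2 (adjusted p = 0.0327). C1s1 shares 25.3% of its 3′ words with other genes, most often C1s2, and C2 shares 22.7%, most often with Gm20547.

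The C1q chain genes had fold changes of unlike sign, and none passed. C1q is assembled from A, B and C chains encoded side by side on chromosome 4. C1qa had 1406, 1864, 1727 and 1553 scaled counts in T cell-low livers, against 615 to 2069 with a median of 1036 in T cell-high livers. C1qc had 199.7, 78.1, 73.0 and 149.5 in T cell-low livers, against 90.4 to 350.5 with a median of 246 in T cell-high livers. The lowest T cell-high libraries for C1qc were 2 and 4, which were the highest for C1qa. The fold changes were 0.53 for C1qa (SE 0.32, adjusted p = 0.258), 0.55 for C1qb (SE 0.32, adjusted p = 0.228) and -0.86 for C1qc (SE 0.39, adjusted p = 0.137). C1qc passed without T cell-low 1 (-1.12, adjusted p = 0.0444) or T cell-high 2 (-1.10, adjusted p = 0.0393). The ratio of C1qc to C1qa within a library was 0.142, 0.0419, 0.0423 and 0.0963 in T cell-low 1 to 4 and 0.0437 (library 2) to 0.438 (library 5) in T cell-high livers.

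Macrophage markers varied among libraries of both groups. Of 15 Kupffer cell and macrophage genes 0 passed by limma (1 at an unadjusted p below 0.05), with a median of 0.10, and their summed scaled count ran from 6693 to 10702 in T cell-low livers against 3822 to 12678 in T cell-high livers. The most abundant, Cd5l, had 0.25 (SE 0.38, adjusted p = 0.667). The summed C1q chains divided by that sum gave 0.282, 0.485, 0.294 and 0.443 in T cell-low 1 to 4 and 0.301 to 0.364 in T cell-high livers. T cell-low 2 and 4 lay above the T cell-high range and T cell-low 1 and 3 below it. The part of macrophage content in the C1q values was not tested.

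**Figure D3:**
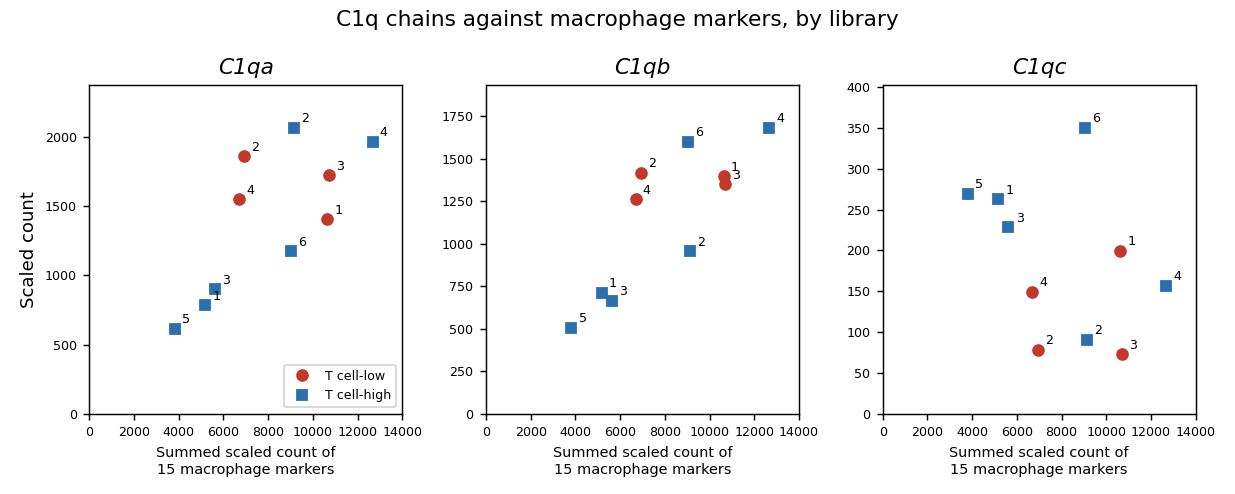
Scaled counts of C1qa, C1qb and C1qc (vertical axes from 0) against the summed scaled count of 15 macrophage markers in each library (numbers give the library within its group; red circles T cell-low, blue squares T cell-high). C1qa and C1qb are lowest in T cell-high 5, 1 and 3, where the marker sum is lowest, and C1qc is highest in T cell-high 6, 5, 1 and 3.

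Receptors for the cleaved fragments are carried by myeloid cells. C3ar1, the C3a receptor gene (chromosome 6, 122847138 to 122856161), had 143.0, 92.5, 172 and 95.2 scaled counts in T cell-low livers, against a lowest of 40.2, a median of 61.3 and a highest of 119.6 in T cell-high livers. T cell-high 4 lay within the T cell-low range and the other T cell-high libraries below it. The fold change was 0.96 (SE 0.33, adjusted p = 0.0653), and 1.14 (adjusted p = 0.0367) without T cell-high 4. C5ar1, the C5a receptor gene, stayed under the filter with 0 to 8.92 scaled counts in T cell-low livers against 0 to 8.0 in T cell-high livers. The summed scaled count over 13 neutrophil markers was 659 to 1794 in T cell-low livers against 48.6 to 239.5 in T cell-high livers. Most of this sum came from S100a8 and S100a9. S100a8 (3.85, adjusted p = 0.00331) and S100a9 (3.32, adjusted p = 0.00595) rose, and Mmp9 did not pass (-0.25, adjusted p = 0.861). Of the 8 markers under the filter Csf3r averaged lower in T cell-low livers (0.41 against 1.58) and the others averaged higher. Ngp, averaging 38.6 in T cell-low livers against 1.45 in T cell-high livers, and Retnlg, with 42.1 against 8.23, reached the filter only through the T cell-low libraries, so that no count is read from them. The sum over 10 monocyte and dendritic cell markers ran from 119 to 251 in T cell-low livers against 64.3 to 102 in T cell-high livers. The highest T cell-low averages of the 10 were those of S100a4 (78.1, against 26.9 in T cell-high livers) and Chil3. The sum is therefore not read as the content of these cells. S100a4 rose (1.53, adjusted p = 0.0120), and Chil3, averaging 35.8 in T cell-low livers against 1.25 in T cell-high livers, again reached the filter only through the T cell-low libraries. Ccr2 (0.06, adjusted p = 0.954) and Clec9a (0.22, adjusted p = 0.739) did not pass. Of the 6 markers under the filter Ly6c2 averaged higher in T cell-low livers, and Flt3, Xcr1, Cd209a, Siglech and Plac8 averaged lower. The part of neutrophils, monocytes and dendritic cells in the C3ar1 values was not tested.

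**Figure D4:**
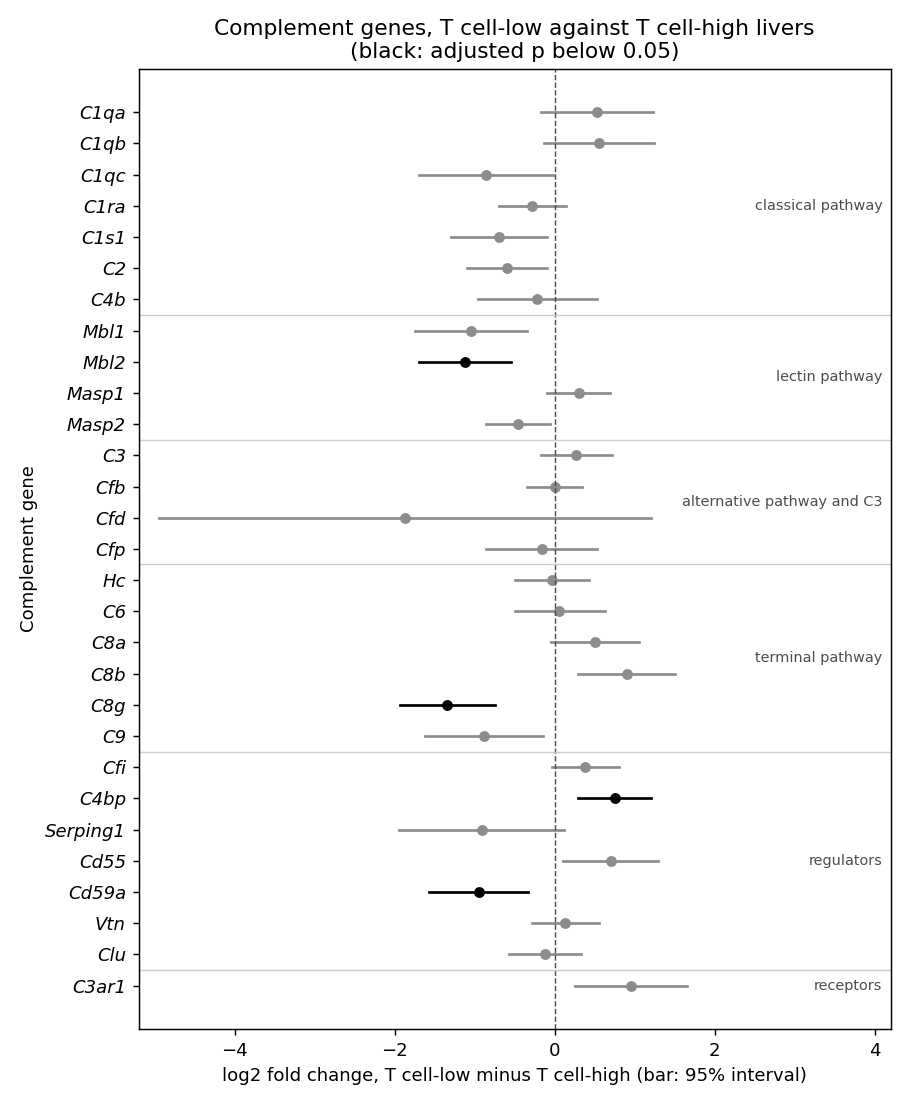
Log2 fold change, T cell-low minus T cell-high, of the 29 tested complement genes by role, with the 95% interval as a bar and the genes with an adjusted p below 0.05 in black. C4bp lies right of 0 and Mbl2, C8g and Cd59a left of it, while the intervals of C3, Cfb, Hc, C6, Vtn and Clu hold 0.

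Of 30 further complement genes 29 are in the table and 21 were tested, of which 3 rose, 0 fell by limma (2 at an unadjusted p below 0.05) and 18 did not pass (14.3% called, against 12.8% of all genes; median 0.08). Those that rose included the cell surface genes Itgam and Cd93. Itgam, the alpha chain of complement receptor 3 on neutrophils and monocytes, had 122, 114.2, 314.5 and 151 scaled counts in T cell-low livers, against 14.7 to 114.7 with a median of 32.5 in T cell-high livers (2.14, SE 0.47, adjusted p = 0.0197). It rose beside S100a8 and S100a9. Its adjusted p was 0.0572, 0.0546 and 0.0660 without T cell-low 2, 3 and 4. Cd93, a surface protein of endothelial and myeloid cells once named a C1q receptor, had 294, 331, 153 and 397 in T cell-low livers, against 113 to 156.5 with a median of 138 in T cell-high livers (1.04, SE 0.25, adjusted p = 0.0265). The adjusted p of Cd93 was 0.0952 and 0.0869 without T cell-low 2 and 4 and 0.0573, 0.0537, 0.0598 and 0.0586 without T cell-high 1, 3, 5 and 6. Of 12 sinusoidal endothelial markers 2 rose, Lyve1 (1.63, adjusted p = 0.0262) and Stab2 (0.79, adjusted p = 0.0432), and 1 fell, Dnase1l3 (-1.13, adjusted p = 0.0169), with sums of 3086 to 3512 in T cell-low livers against 3036 to 4120 in T cell-high livers. The 2 most abundant of the 29 by mean, Calr and Cpb2, did not pass. Calr, the gene of the chaperone calreticulin, to which C1q also binds, had -0.25 (SE 0.28, adjusted p = 0.536). Cpb2, whose product inactivates the anaphylatoxins, had 0.48 (SE 0.20, adjusted p = 0.106).

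Several complement genes respond to interferon or to interleukin 6 in liver, and both kinds of context gene were measured. Of 23 tested type I interferon genes 14 fell and 0 rose by limma (0 at an unadjusted p below 0.05), with a median of -1.43, among them Isg15 (-3.22, adjusted p = 0.00876) and Cmpk2 (-1.85, adjusted p = 0.0194). Of the 14, Ifit3b and Zbp1 reached the filter only through the T cell-high libraries, which leaves 12 of 21. The list's median difference from the T cell-high mean took values of -0.17, -2.45, -1.48 and -1.58 in T cell-low 1 to 4, against -0.38 to 0.18 in T cell-high livers. Of 12 genes of interleukin 6 and STAT3 signalling 1 fell, Lifr (-1.11, adjusted p = 0.0135), and the median was 0.13. Their part in the complement values was not tested.

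Of 14 tested hepatocyte genes 2 rose, the apolipoprotein genes Apoa1 (1.08, adjusted p = 0.0208) and Apob (1.05, adjusted p = 0.0444), with a median of 0.20. Of 5 red cell genes 1 rose, Hba-a2 (1.22, adjusted p = 0.0415). By limma 0 of 12 stellate cell and fibroblast, 0 of 4 cholangiocyte, 0 of 3 T and NK cell and 0 of 3 B and plasma cell genes tested passed, with 4, 2, 0 and 1 of them at an unadjusted p below 0.05. The most abundant of these lists were Dcn (0.40, adjusted p = 0.182), Sox9 (0.62, adjusted p = 0.269), Ccl5 (0.07, adjusted p = 0.906) and Sdc1 (-0.66, adjusted p = 0.0881). Sdc1 averaged 794.9 scaled counts over all libraries, against 11.26 for Cd79b and 11.29 for Ms4a1, the other tested genes of its list. It is therefore not read as a measure of B or plasma cells. Cell type content was not tested as a part of any complement difference.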

How the data were processed

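RNA from total liver had been stored in TRIzol and sequenced with a QuantSeq 3′ kit, per the labels' protocols. STAR, DESeq2 and the build mm10 are named in the submitters' processing notes, without versions, with no word on the counter or annotation. The deposited table holds a signal per gene and library, taken here as gene counts that the authors scaled with DESeq2, a step the notes name but do not describe. Since these are not whole and reads could not be recovered from them, depth is unknown, no counting interval is given and an exact 0 may be a failed estimate. No column was left without a sample. Some genes of the lists are not reported here.

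Groups and replicate numbers came from the titles. The log2 of the value plus 1 was fitted with limma 3.58.1 in R 4.3.3 (variance trend, group as the only term, 13.1 degrees of freedom) for 11110 genes with a mean of at least 10. P-values are two-sided, adjusted over all of them, with a threshold of 0.05. On simulated data of this comparison (11110 genes, 50 changed at each size) 20.0% were recovered at a log2 step of 1, 78.0% at 2 and 98.0% at 4. Positions are from GENCODE M21 (mm10 assembly), and 3′ sharing counts 50-base words of the last 400 bases of protein-coding transcripts that occur in another gene. The members and lists were chosen with earlier results of these data known. Values per library are given for called members and for the member of highest mean in a role without one, as ruled, and for Mbl1, C8b, C9, C7, C1qa, C1qc and Serping1, chosen after their values were seen. Alternatives covered pseudocount, filter, scaling, robust variance, library weights, a replicate block, each library left out, subsets of T cell-high libraries and, added after seeing the data, transcript length and a smaller set of libraries. Figures used matplotlib 3.10.9 in Python 3.11.15.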

Additional observations from a re-analysis of the deposited data

Results flagged for a closer look

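Among 100 checks of 1 group each (50 tested complement genes in 2 groups), 8 single libraries lay far from the rest of their group, with a gap to the nearest library that took most of the group's range; chance gives about 1 in 20 such groups. Of the members, C1s1 was at 192.5 scaled counts in T cell-low 2 (the others at 333 to 359) and Cfp at 88.1 there (the others at 151 to 157). Mbl1 was at 2264 in T cell-high 6 and Cfd at 646 in T cell-high 5, both above their group. Of the further complement genes, Cpn2, a subunit of carboxypeptidase N, was at 3148 in T cell-low 2 and Cr1l, a membrane regulator, at 695 in T cell-low 3. Cd59b was at 17.4 in T cell-low 1 and Itgam at 115 in T cell-high 4.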

How the results depend on the processing

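The count of members called higher (1 as reported, C4bp) was 2 with a pseudocount of 5 and with a mean of at least 50, 3 with the length trend removed, 4 with library weights and 5 against T cell-high 1, 3, 5 and 6. It was 0 after rescaling to the same total, with the replicate block, against T cell-high 2 and 4, and 0 against these also without T cell-low 1, and ran from 0 to 3 with 1 library left out. The count called lower (3) was 9 with library weights, 7 against T cell-high 1, 3, 5 and 6, 1 with the length trend removed and 1 against T cell-high 2 and 4 without T cell-low 1. It was 0 with the replicate block and against T cell-high 2 and 4, and ran from 0 to 7 with 1 library left out. For the further complement genes called higher (3) the count was 0 with the replicate block and against T cell-high 2 and 4 with or without T cell-low 1, and 1 to 3 with 1 library left out. For those called lower (0; limma, 2 at an unadjusted p below 0.05) it was 2 with library weights and against T cell-high 1, 3, 5 and 6, and 0 to 2 with 1 left out. All genes called higher (599) and lower (821) numbered 1432 and 1834 with library weights, 60 and 133 with the replicate block, 1104 and 1501 against T cell-high 1, 3, 5 and 6, 0 and 0 against T cell-high 2 and 4 (999 at an unadjusted p below 0.05), and 172 and 203 against these without T cell-low 1. With 1 library left out they ran from 41 to 1713 and from 67 to 1909. They were 667 and 860 with a pseudocount of 5, and 421 and 1068 after rescaling to the same total. Of 7745 genes with a mean of at least 50 they were 559 and 783. With the length trend removed they were 604 and 686 of 10739 genes. The subsets of libraries hold fewer samples by construction, and counts both rose and fell among them. The cause was not tested.

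The titles number the replicates but do not say that equal numbers are paired. Same-numbered libraries had correlations of deviations of 0.10, 0.21, -0.10 and -0.15. Values of other pairs were not set beside them, so they cannot decide whether a pairing exists. The replicate block left 0 members called by limma (8 at an unadjusted p below 0.05). C8g, Mbl2, Cd59a and C4bp kept their direction under all 23 alternatives, and passed in 19, 14, 11 and 11 of them. Differences below about 2 on the log2 scale were often missed in the simulation. It changed 50 genes at each size, where 1420 genes passed in the data, and drew its noise for each gene separately. Its rates therefore need not hold for these members, and a member that did not pass may still differ.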
